A study of Mus musculus with 27 samples.

Results

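The comparison described here set *Per1*-/- cells against wild-type (WT) cells on day 4 of neuronal reprogramming, in which fibroblasts from mouse embryos (MEFs) are turned into induced neurons (iNs). It rests on 6 of the 27 RNA-seq libraries of the series, 3 of each genotype, chosen by their labels. MEFs were cultured from trunks and limbs of mid-gestation embryos of undetermined sex, with several embryos pooled in a dish. The *Per1* mutation was that of the B6.129-*Per1*tm1Drw/J line. WT mice were bred by the study as well, but it does not name the line that gave them. Both groups carried the same lentiviruses, which encode neuronal transcription factors, among them *Brn2*, under a doxycycline promoter, and the M2rtTA activator. Both were switched to serum-free N3 medium with doxycycline on day 0, so that WT cells are a control for the genotype and not for the viruses. Libraries were labelled as induced neurons but were made from whole, unsorted cultures. Other libraries covered days 0 and 2 and a *Per2*-/- genotype.

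PER1 is a repressor of the circadian clock. In this loop CLOCK and BMAL1 bind E-box sequences and drive the *Per* and *Cry* genes, whose proteins then inhibit CLOCK and BMAL1. MEF cultures are mixtures in which fibroblasts dominate and embryonic macrophages persist, so a bulk profile adds the RNA of several cell types. Fewer cells of a type and less RNA per cell cannot be told apart in such a profile.

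The tests covered the 14932 genes that averaged 0.5 FPKM or more in the whole series. FPKM is the count of sequenced fragments scaled by gene length and by a divisor for each library. That divisor was not the number of fragments assigned to genes. It solved to 18683171 against 17472487 assigned in WT day 4 replicate 1, and to 19028608 against 21906593 in WT day 0 replicate 1. How it was set is not described by the study. A log2 fold change here is *Per1*-/- minus WT on the log2(FPKM + 0.1) scale, which understates the change of low genes. Calls required an adjusted p of 0.05 or less in limma together with a change of 0.58 or more on the log2 scale, up or down. The 6 libraries held 15815013 to 21565355 fragments assigned to genes, and correlated within a group (Pearson's r across genes of 0.956 to 0.966) about as well as between groups (0.949 to 0.966). The miRNA gene *Gm23935* took 25% of the FPKM sum in *Per1*-/- replicate 2 against 8.4% to 12.9% in the other 5 libraries, which matters for any rescaling to a common sum.

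The targeted gene was first examined in each library. *Per1* (ENSMUSG00000020893, GRCm38 chromosome 11, 69095217 to 69109960) was at 4.54, 4.59 and 4.23 FPKM in the libraries labelled *Per1*-/- and at 5.62, 4.95 and 4.92 FPKM in WT. The groups did not overlap, but the log2 fold change was only -0.21 (standard error 0.138, adjusted p = 0.933 from limma). An exact two-sided permutation test of the FPKM over the 20 assignments gave p = 0.1, the smallest that 3 against 3 allows. Thus the gene-level value did not show a loss of the transcript, and since it pools all exons it does not check a deletion of part of the gene. On day 0 *Per1* was at 4.96, 3.23 and 4.15 FPKM in *Per1*-/- libraries and at 6.33, 5.58 and 5.44 FPKM in WT. On day 2 the values were 4.49, 4.51 and 3.62 FPKM against 4.76, 4.81 and 4.83 FPKM. Both days were thus lower without overlap, by -0.50 and -0.19 on the log2 scale (adjusted p = 0.771 and 0.999 from limma). *Per1*-/- below means the libraries with that label. The level of this gene went in the direction of the labels on each day but was too small a difference to establish them. The study reported a loss of the PER1 protein in *Per1*-/- MEFs by western blotting, which is not part of these data.

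Differences were small and ran in both directions. Of the tested genes 7123 (47.7%) were higher in *Per1*-/- libraries and 7807 were lower, the median log2 fold change was -0.01, and the quartiles were -0.11 and 0.11. Only 4 genes were called (0.0268% of those tested), 3 higher and 1 lower. This number belongs to limma on log2 FPKM. With voom weights on the fragments recovered from the FPKM 3 genes were called. A count model was not run here. The study used such a model with the same thresholds and reported many more genes that differed from both other genotypes on this day. Most of those genes were higher in *Per1*-/- cells in the study, and macrophage genes were among them. The short list of calls from limma is thus no sign that few genes differ. The larger differences leaned upward: 716 genes were at least 0.58 higher on the log2 scale and 416 at least 0.58 lower. At an unadjusted p under 0.05 there were 558 higher genes (3.74%) and 366 lower genes (2.45%). All 3 *Per1*-/- libraries lay above all 3 WT libraries for 1191 genes (7.98%) and below them for 984 (6.59%). These shares are the background for each group of genes below.

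**Figure D1:**
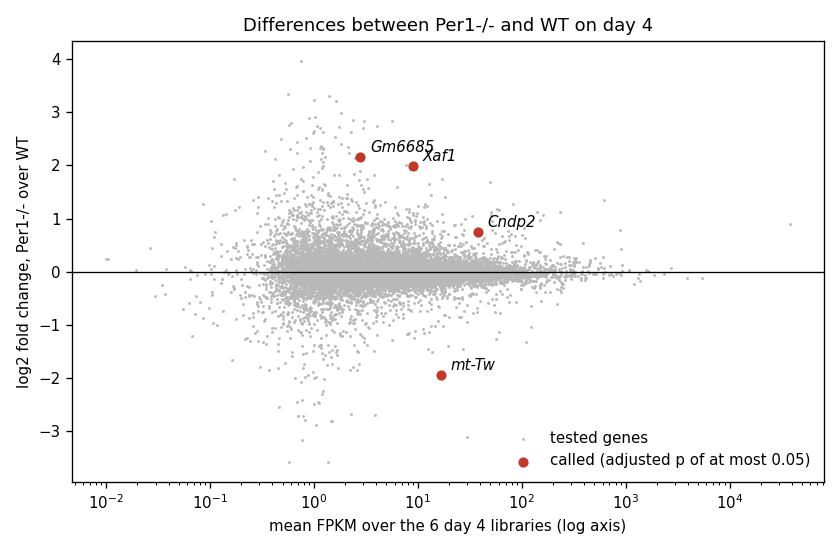
Each point is 1 of the 14932 tested genes, with its mean FPKM over the 6 day 4 libraries on a log axis against its log2 fold change of *Per1*-/- over WT. The spread narrows as the level rises, and the 4 called genes, in red, are *Gm6685*, *Xaf1* and *Cndp2* above 0 and *mt-Tw* below 0.

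*Xaf1* (ENSMUSG00000040483, chromosome 11, 72301629 to 72313733) encodes an interferon-inducible protein that binds XIAP, an inhibitor of caspases. It was at 21.6, 13.2 and 8.98 FPKM in *Per1*-/- libraries against 2.84, 4.66 and 2.84 FPKM in WT. The lowest *Per1*-/- library thus lay above the highest WT library, with a log2 fold change of 2.00 (95% confidence interval 1.31 to 2.69). *Gm6685* (ENSMUSG00000032889, chromosome 11, 28339104 to 28339867), a predicted protein-coding gene, was at 6.17, 3.45 and 4.25 FPKM in *Per1*-/- libraries and at 0.771, 0.941 and 1.11 FPKM in WT, or 2.16 on the log2 scale (1.49 to 2.82). *Xaf1* starts 3.21 Mb and *Gm6685* 40.8 Mb from the start of *Per1* on the same chromosome. Their log2 fold changes on the other days were similar, 1.92 and 2.20 on day 0 and 2.23 and 1.83 on day 2.

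*Cndp2* (ENSMUSG00000024644, chromosome 18), a cytosolic dipeptidase, was at 54.1, 44.1 and 43.4 FPKM in *Per1*-/- libraries and at 27.6, 25.9 and 31.1 FPKM in WT. Its log2 fold change was 0.74 (95% confidence interval 0.48 to 1.00), after 0.23 on day 0 and 0.45 on day 2. It was the abundant gene of the 4, with at least 1093 fragments in every library. In a fit with the mean of the macrophage markers as a covariate it was 0.58 (adjusted p = 0.133 from limma) and was no longer called. The only gene called lower, *mt-Tw*, is the 67-base mitochondrial tRNA gene for tryptophan (mitochondrial genome, 4950 to 5016). It was at 5.08, 5.49 and 10.5 FPKM in *Per1*-/- libraries and at 22.4, 30.2 and 25.9 FPKM in WT, which came from 6 to 16 and 28 to 45 fragments. With voom weights on the fragments *mt-Tw* was not called (adjusted p = 0.066). Its log2 fold change was -1.95 on day 4, -0.06 on day 0 and -0.09 on day 2. In *Per2*-/- libraries of day 4 it was -1.41 against the same WT libraries. There *Xaf1*, *Gm6685* and *Cndp2* were at 0.25, -0.24 and -0.19.

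None of the 4 calls held in every fit that left out 1 library. The call of *Xaf1* was lost in 5 of 6, of *Cndp2* in 5, of *mt-Tw* in 5 and of *Gm6685* in 4. The log2 fold changes kept their sign throughout, from 1.67 to 2.30 for *Xaf1*, 1.93 to 2.34 for *Gm6685*, 0.64 to 0.81 for *Cndp2* and -2.28 to -1.76 for *mt-Tw*.

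**Figure D2:**
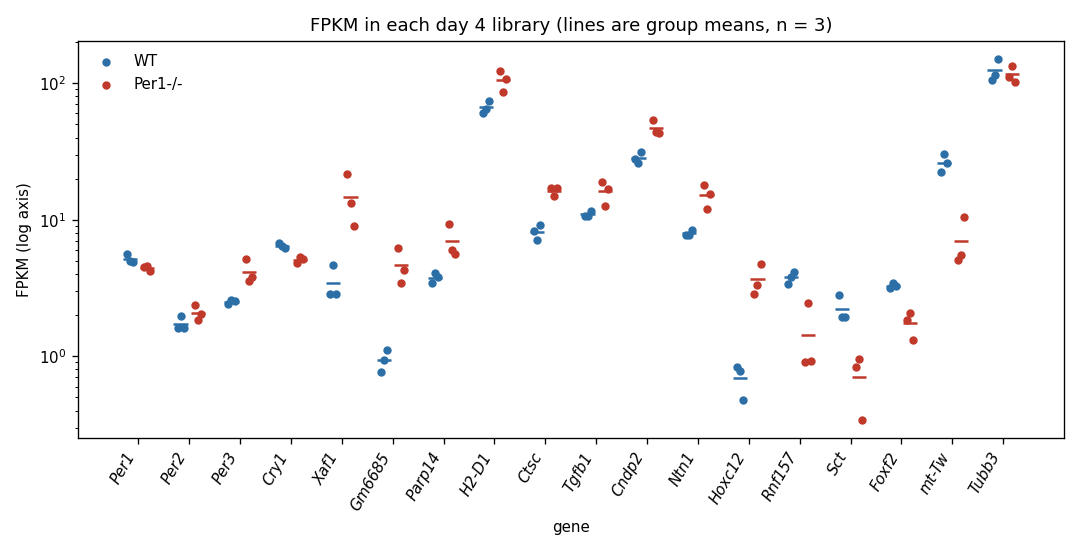
FPKM on a log axis of 18 genes in each of the 3 WT (blue) and 3 *Per1*-/- (red) day 4 libraries, with a line at each group mean. For *Gm6685*, *Xaf1*, *Hoxc12* and *Ctsc* the red points lie above all the blue ones, for *Rnf157*, *Sct*, *Foxf2* and *mt-Tw* below them, and for *Tubb3* they are mixed.

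Promoter sequences of 4 genes are shown because they belong to the called interferon-inducible gene, to the 2 clock genes named below with separated groups, and, for comparison, to the interferon-stimulated gene with the smallest p among those whose window holds the interferon motif. They are RefSeq sequences of the GRCm38.p6 build, taken from 250 bases before to 50 bases after a gene start and printed 5′ to 3′ on the strand of the gene. Capitals mark matches on either strand to CACGTG (the E-box), TTATGTAA (a D-box sequence) or GAAANNGAA (the core of an interferon-stimulated response element). The *Xaf1* window is chr11:72301379-72301678, the *Cry1* stretch chr10:85185079-85185144 on the minus strand, the *Per3* stretch chr4:151044786-151044900 on the minus strand, and the *Oas1a* stretch chr5:120907501-120907575 on the minus strand.
Xaf1: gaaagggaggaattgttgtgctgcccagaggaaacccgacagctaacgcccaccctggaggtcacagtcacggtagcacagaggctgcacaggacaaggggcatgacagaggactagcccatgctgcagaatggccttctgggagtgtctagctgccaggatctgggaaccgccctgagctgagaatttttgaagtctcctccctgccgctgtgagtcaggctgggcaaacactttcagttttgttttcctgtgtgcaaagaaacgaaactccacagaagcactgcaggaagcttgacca
Cry1: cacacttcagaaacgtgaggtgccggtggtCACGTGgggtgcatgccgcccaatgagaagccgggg
Per3: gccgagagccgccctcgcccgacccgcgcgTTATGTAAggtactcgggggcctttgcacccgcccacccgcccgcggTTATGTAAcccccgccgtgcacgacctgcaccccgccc
Oas1a: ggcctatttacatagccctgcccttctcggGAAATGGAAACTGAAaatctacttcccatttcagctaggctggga

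CACGTG was found in the promoter windows of 8.09% of the 27025 genes with one, TTATGTAA in 1.11% and GAAANNGAA in 9.76%. The 300 bases of *Xaf1* hold none of these letters. Those of *Cry1* hold 1 E-box and those of *Per3* hold the D-box sequence at both places in capitals. In *Oas1a* a pair of overlapping matches makes up the capital run. Of the interferon-stimulated genes with a window, 24 of 38 (63.2%) held GAAANNGAA, and of the lysosome genes 15 of 43 (34.9%) held CACGTG. A match is a description of the letters and not of binding.

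The core clock genes had no common direction. Of 20 tested, 9 were higher and 11 lower in *Per1*-/- libraries, with a median of -0.01, the same as over all genes. The groups were separated for 5 of them (3 higher, 2 lower), and 4 were at an unadjusted p under 0.05. *Per3*, a *Per* paralog outside the core repressor loop, was at 5.14, 3.56 and 3.79 FPKM in *Per1*-/- libraries and at 2.40, 2.59 and 2.55 FPKM in WT. Each *Per1*-/- library was above each WT library, with a log2 fold change of 0.69 (standard error 0.246, adjusted p = 0.608 from limma). It was 0.54 on day 0 and 0.53 on day 2. *Cry1*, the partner of the PER proteins, was at 4.79, 5.37 and 5.11 FPKM against 6.71, 6.44 and 6.17 FPKM in WT. These values were lower in all 3 *Per1*-/- libraries, with a log2 fold change of -0.33 (standard error 0.112, adjusted p = 0.58). *Per2* was at 2.37, 1.83 and 2.03 FPKM against 1.60, 1.97 and 1.61 FPKM, and the groups overlapped.

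Clock output factors, the transcription factors that carry the rhythm to other genes, had the same median of -0.01 over 12 genes. Here the PAR-bZIP factors *Tef* and *Dbp* were above WT in every library, *Tef* by 0.24 and *Dbp* by 0.44 on the log2 scale (adjusted p = 0.876 and 0.885 from limma). *Dbp* was at 8.14, 5.26 and 6.31 FPKM in *Per1*-/- libraries and at 4.56, 5.01 and 4.65 FPKM in WT. The labels do not give a synchronization or a clock phase at harvest.

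Across the 42 lists of genes by function, the highest medians after macrophage markers were those of complement (0.38), adipogenic (0.22), antigen presentation (0.21) and interferon-stimulated genes (0.20). The lowest were those of the neuronal cytoskeleton (-0.16), chondrocyte and bone (-0.14), synaptic (-0.13) and mitochondrially encoded genes (-0.12). All 36 tested macrophage markers were higher in *Per1*-/- libraries, 29 without overlap and 12 at an unadjusted p under 0.05, with a median of 0.99. The summed level of the markers was 1625 to 2776 FPKM in *Per1*-/- libraries and 835 to 1410 FPKM in WT. The defining markers were well above 0 in WT as well: *Adgre1*, which encodes F4/80, was at 20.7, 18.7 and 24.7 FPKM in WT and at 54.1, 37.3 and 42.9 FPKM in *Per1*-/- libraries. *Csf1r*, the receptor for M-CSF, and *Itgam*, which encodes CD11b, were 1.07 and 0.85 higher on the log2 scale. No marker was called by limma on log2 FPKM. With its count model the study did report genes of macrophage surface markers as higher in *Per1*-/- cells.

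**Figure D3:**
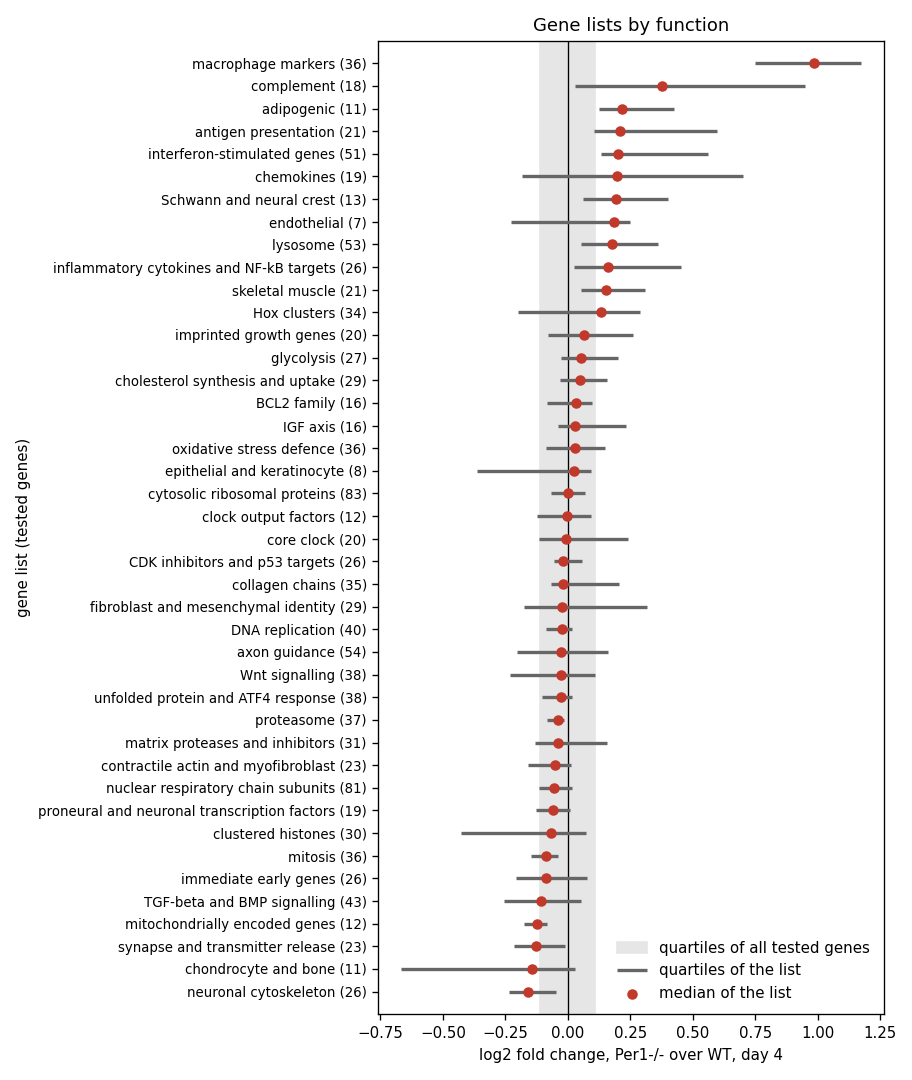
Median (red) and quartiles (grey bars) of the day 4 log2 fold change of *Per1*-/- over WT for 42 gene lists, with the number of tested genes in brackets and the quartiles of all tested genes (-0.11 to 0.11) as a shaded band. Macrophage markers stand alone near 0.99, the next list is complement at 0.38, and the lowest is the neuronal cytoskeleton at -0.16.

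Several of the largest upward differences outside the called genes were in receptors of phagocytes. *Fcrls*, an Fc receptor-like gene of macrophages and microglia, was at 82.2, 63.4 and 74.5 FPKM in *Per1*-/- libraries and at 21.2, 13.1 and 42.0 FPKM in WT. *Fcgr2b* and *Fcgr3*, which encode Fc receptors for IgG, were 2.12 and 1.41 higher on the log2 scale, and *Stab1*, a scavenger receptor, was 1.65 higher. *Nxpe5* was at 9.47, 3.57 and 4.82 FPKM in *Per1*-/- libraries and at 1.59, 0.834 and 2.40 FPKM in WT. The groups of each of these genes were separate, and the adjusted p ranged from 0.402 to 0.72 (limma). With the marker mean as a covariate the log2 fold change was 0.74 for *Fcrls*, 0.93 for *Fcgr2b*, 0.27 for *Fcgr3*, 0.40 for *Stab1* and 1.25 for *Nxpe5*. *Fcgr2b*, *Fcgr3* and *Stab1* are themselves among the markers averaged in the covariate, so a smaller value for them is in part built into the fit.

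Complement genes had a median of 0.38 over 18 genes, of which 14 were higher and 7 were separated upward. The initiating subunit gene *C1qa* was at 135, 102 and 117 FPKM in *Per1*-/- libraries and at 50.4, 42.6 and 52.5 FPKM in WT, and *C1qc* was 1.15 higher on the log2 scale. Macrophages are a main source of C1q. With the marker mean as a covariate *C1qa* was at 0.04 and *C1qc* at 0.03, which both count among the markers in that mean. Of the 14 complement genes that were not macrophage markers, 3 were separated upward, and their median was 0.23, or -0.06 with the covariate.

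Lysosome genes were higher over a broader front and by smaller amounts. Of 53 tested, 45 were higher, 19 were separated upward and 2 downward, and 12 were at an unadjusted p under 0.05, all higher, with a median of 0.18. Without the 3 genes shared with the macrophage markers, 16 of 50 were separated upward. *Ctsc*, which encodes the dipeptidyl peptidase that activates granule proteases, was at 17, 15 and 17 FPKM in *Per1*-/- libraries and at 8.21, 7.16 and 9.20 FPKM in WT. The lowest *Per1*-/- library was thus well above the highest WT library (log2 fold change 0.99, standard error 0.231, adjusted p = 0.334 from limma). *Lgmn*, the asparaginyl endopeptidase legumain, was at 156, 106 and 135 FPKM against 89.6, 77.4 and 85.5 FPKM. With the marker mean as a covariate the median of these 50 was 0.07, against 0.16 without it, and *Ctsc* was at 0.65 and *Lgmn* at 0.33. What part the markers have in the lysosome, complement and phagocyte receptor values was not tested.

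The interferon-stimulated genes, which carry the antiviral response, had 44 of 51 members higher, with a median of 0.20. Their libraries were not alike, however. The mean over the list was 3.33, 2.77 and 2.32 on the log2(FPKM + 0.1) scale in *Per1*-/- replicates 1 to 3 and 2.24, 2.82 and 2.32 in WT replicates 1 to 3, so that replicate 1 stood above the others and replicate 3 was level with WT. Of the 51, which include *Xaf1*, 6 were separated upward (11.8%, against 7.98% of all genes), and 4 were at an unadjusted p under 0.05. Without *Per1*-/- replicate 1 the list median was 0.04, and without *Per1*-/- replicate 3 it was 0.56. *Parp14*, an ADP-ribosyltransferase, was at 9.31, 5.99 and 5.61 FPKM in *Per1*-/- libraries and at 3.42, 4.09 and 3.79 FPKM in WT, or 0.84 on the log2 scale (standard error 0.202, adjusted p = 0.373 from limma). *Oas1a*, which makes the activator of RNase L and was chosen after its values were seen, was at 11.1, 8.68 and 5.75 FPKM against 3.89, 5.96 and 3.40 FPKM, with overlap. With the marker mean as a covariate 50 of 51 members were higher and the median was 0.33. In *Per2*-/- libraries of day 4 the list median against the same WT libraries was 0.22, and that of antigen presentation was 0.03.

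Antigen presentation followed the same direction with less spread between WT libraries. The list mean was 3.26, 2.84 and 2.86 in *Per1*-/- libraries and 2.72, 2.70 and 2.64 in WT, without overlap. Of 21 members, 20 were higher, 6 were separated upward, and 6 were at an unadjusted p under 0.05. *H2-D1*, a classical class I heavy chain gene, was at 123, 86.7 and 108 FPKM in *Per1*-/- libraries and at 60.2, 64.8 and 74.1 FPKM in WT. *H2-K1*, a second one, was at 66.2, 43.0 and 48.4 FPKM against 29.7, 35.5 and 35.6 FPKM. Both were higher in every *Per1*-/- library, by 0.66 and 0.62 on the log2 scale (adjusted p = 0.415 and 0.573 from limma), but class I genes are near-identical copies and reads may be shared between them. The median was 0.23 with the marker mean as a covariate.

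The proteasome held members of both directions. This list overlaps that of antigen presentation, and the largest log2 fold change, 0.66, was the same in both, so their upward members are not separate results. The 37 tested proteasome genes had the smallest interquartile range of the 42 lists, 0.07, with 29 of 37 lower and a median of -0.04. The genes separated upward were *Psmb10* and *Psmb8*, the latter named after its values were seen, and both encode interferon-inducible subunits of the immunoproteasome. *Psmb10* was at 15, 10.9 and 9.91 FPKM in *Per1*-/- libraries and at 7.85, 9.83 and 8.60 FPKM in WT. The constitutive core subunit gene *Psma3* was at 19.9, 18.9 and 19.9 FPKM against 22.1, 23.6 and 20.6 FPKM. The log2 fold changes of *Psmb10* and *Psma3* were 0.42 and -0.17 (adjusted p = 0.608 and 0.805 from limma).

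Inflammatory cytokines and NF-κB targets were higher in 21 of 26 cases, 8 without overlap, with a median of 0.16. *Tlr2*, a receptor for bacterial lipopeptides, was at 12.1, 7.89 and 9.80 FPKM in *Per1*-/- libraries and at 7.58, 5.07 and 6.89 FPKM in WT. *Nfkbie*, an inhibitor of NF-κB that is itself a target, was 0.48 higher on the log2 scale, and 0.49 with the marker mean as a covariate, whereas *Tlr2* was 0.60 and 0.26. *Tnf* was at 3.32, 0.822 and 2.12 FPKM against 1.37, 0.905 and 1.63 FPKM, so that the lowest and the highest of the 6 were both *Per1*-/- libraries. *Il6* did not reach the level for testing. Chemokines varied widely, with an interquartile range of 0.88, and 2 of 19 were separated, both upward (10.5%, against 7.98% of all genes). *Cxcl16*, a membrane-bound chemokine that is also a scavenger receptor, was 0.81 higher without overlap (adjusted p = 0.72 from limma), and 0.27 higher with the marker mean as a covariate. It starts 1.36 Mb from *Per1*.

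**Figure D4:**
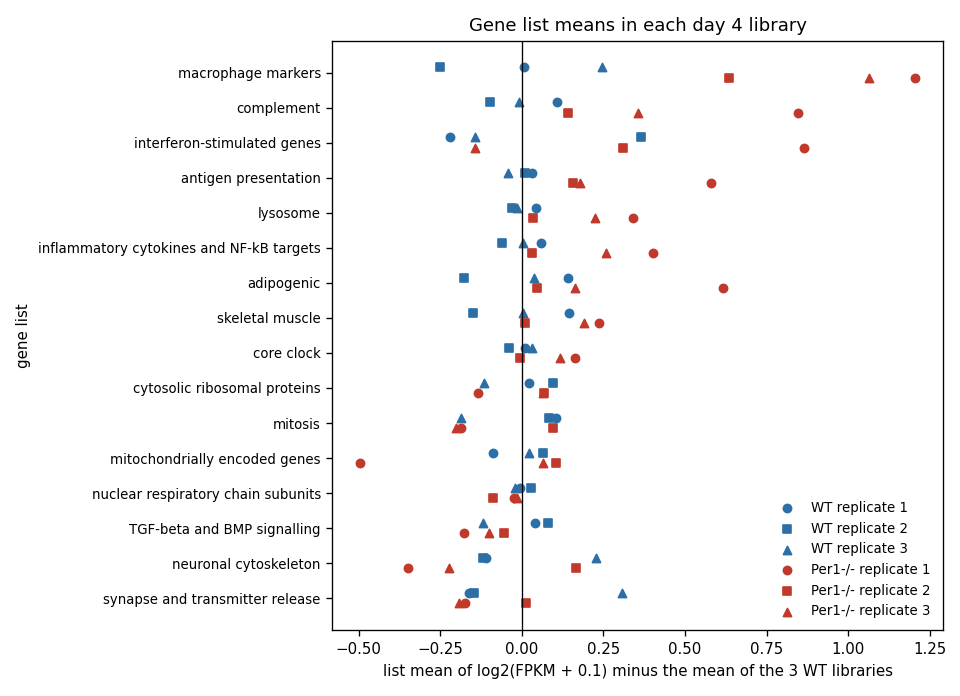
Mean of log2(FPKM + 0.1) over 16 gene lists in each day 4 library, minus the mean of the 3 WT libraries, with WT in blue, *Per1*-/- in red and a marker shape for each replicate number. The red points lie above all the blue ones for macrophage markers, complement and antigen presentation, and *Per1*-/- replicate 1 lies farthest out in most of the immune lists.

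Neuronal genes leaned downward, within the spread of the libraries. Of 26 genes of the neuronal cytoskeleton 21 were lower, with a median of -0.16. Of 23 synaptic genes 17 were lower, with a median of -0.13, and of 19 proneural and neuronal transcription factors 14 were lower, with a median of -0.06. In all 3 lists no gene was separated downward and none was at an unadjusted p under 0.05. In *Per2*-/- libraries of day 4 the 3 medians against the same WT libraries were -0.19, -0.02 and -0.15. The lean of *Per1*-/- against WT depended on single libraries of both groups. WT replicate 3 had the highest mean of each of the 3 lists, and without it the medians were -0.03, 0.06 and 0.10. The median of the cytoskeleton was also -0.04 without *Per1*-/- replicate 1, and those of the other lists were -0.04 and -0.02 without *Per1*-/- replicate 3. Leaving out other libraries made the lean larger. The cytoskeleton was at -0.29 without *Per1*-/- replicate 2, and the other lists were at -0.26 and -0.15 without WT replicate 1. *Pou3f2*, which encodes the delivered factor BRN2, was at 177, 154 and 123 FPKM in *Per1*-/- libraries and at 121, 130 and 207 FPKM in WT. Reads of the transgene and of the endogenous gene are not separated in these values. *Tubb3*, the marker βIII tubulin, was at 112, 134 and 102 FPKM against 106, 115 and 151 FPKM. *Myt1l*, *Map2* and *Mapt* had log2 fold changes of -0.14, -0.11 and -0.05, and all 5 genes overlapped between the groups. *Myt1l* was also among the delivered factors, so its transgene and endogenous reads are not separated either.

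Axon guidance genes were balanced, with 24 higher and 30 lower of 54 and a median of -0.03. Here *Ntn1*, the secreted guidance cue netrin-1, was at 18, 12 and 15.4 FPKM in *Per1*-/- libraries and at 7.73, 7.73 and 8.43 FPKM in WT. It was 0.90 higher on the log2 scale (standard error 0.313, adjusted p = 0.602 from limma), 0.94 with the marker mean as a covariate, and 0.51 on day 0 and 0.93 on day 2. It starts 0.886 Mb from *Per1*. *Srgap2*, a regulator of neurite branching, was at 10.9, 9.28 and 10.7 FPKM against 8.82, 7.78 and 8.21 FPKM. *Gng3*, a G protein subunit gene of neurons, had a log2 fold change of -0.99.

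Fibroblast functions had medians near 0 as groups, while single regulators had larger differences. Fibroblast and mesenchymal identity genes summed to 2379 to 2759 FPKM in *Per1*-/- libraries and 2186 to 2670 FPKM in WT, so that fibroblast RNA was present in libraries labelled as induced neurons. The neuronal cytoskeleton genes summed to 867 to 1101 FPKM and 894 to 1134 FPKM, over other genes, so the sums are not compared. The fibroblast median was -0.02, as was that of 35 collagen chain genes. With the marker mean as a covariate these became 0.22 and 0.17. *Foxf2*, a mesenchymal transcription factor, was at 1.85, 2.07 and 1.32 FPKM in *Per1*-/- libraries and at 3.15, 3.42 and 3.26 FPKM in WT, with a log2 fold change of -0.89 (standard error 0.248, adjusted p = 0.415 from limma). *Fbln2*, a matrix glycoprotein, was at 235, 213 and 254 FPKM against 164, 188 and 171 FPKM.

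TGF-β and BMP signalling genes leaned downward, with 28 of 43 lower and a median of -0.11, and 4 were separated downward and 1 upward. Together these were 11.6% of the list, where 6.59% of all genes were separated downward and 7.98% upward. The list member separated upward was the ligand gene *Tgfb1* itself, at 18.9, 12.5 and 16.9 FPKM in *Per1*-/- libraries and at 10.6, 10.7 and 11.5 FPKM in WT. Another ligand gene, *Bmp2*, was at 2.00, 2.71 and 1.73 FPKM against 3.63, 4.41 and 2.81 FPKM. Their log2 fold changes were 0.54 and -0.73 (adjusted p = 0.415 and 0.789 from limma), and with the marker mean as a covariate 0.32 and -0.63. In the Wnt pathway 2 of 38 genes were separated, both downward (5.26%, against 6.59% of all genes). They were the receptor gene *Fzd6*, at 1.43, 2.89 and 2.45 FPKM against 3.21, 4.43 and 2.91 FPKM, and the ligand gene *Wnt10a*, with at most 5 fragments in any *Per1*-/- library. *Tnfsf11*, which encodes RANKL, the ligand that drives osteoclast formation, was at 0.522, 1.70 and 1.06 FPKM against 2.59, 2.97 and 1.77 FPKM.

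Some growth regulators of the IGF axis were higher in every library. *Pappa*, the protease that frees IGFs from their binding proteins, was at 7.69, 7.86 and 7.0 FPKM in *Per1*-/- libraries and at 4.17, 5.81 and 4.83 FPKM in WT (log2 fold change 0.61, standard error 0.190, adjusted p = 0.547 from limma). *Igf1* was at 17.1, 15.2 and 18.5 FPKM against 11, 14.5 and 12.6 FPKM. These were the 2 genes of 16 with separated groups (12.5%, against 7.98% of all genes upward), and the mean over the list was also separated. *Peg3*, a paternally expressed imprinted gene, was 0.36 higher without overlap.

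Positional genes were balanced as a group, with 1 wide exception. Of 34 tested *Hox* genes 21 were higher, with a median of 0.13, and only *Hoxc12* was separated. When 1 library was left out the median lay between -0.04 (without WT replicate 2) and 0.33 (without WT replicate 3). *Hoxc12*, which marks the most distal limb and tail positions, was at 2.88, 3.33 and 4.77 FPKM in *Per1*-/- libraries and at 0.831, 0.785 and 0.476 FPKM in WT. No library came near the other group (log2 fold change 2.24, standard error 0.624, adjusted p = 0.424 from limma), and it was 0.61 on day 0 and 1.44 on day 2. In *Per2*-/- libraries of day 4 *Hoxc12* was also higher than in WT, by 1.84 on the log2 scale. *Hoxa11os*, antisense to a limb *Hox* gene and not separable from it without strand, had a log2 fold change of -1.25, and *Lhx9*, a limb and gonad homeobox gene, was at 0.886, 2.37 and 2.05 FPKM against 3.60, 5.85 and 2.84 FPKM. The MEFs came from whole trunks and limbs, so the share of limb tissue in a dish and the level per cell cannot be told apart in these values.

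Other genes with large downward differences had unrelated functions. *Rnf157*, a ubiquitin ligase gene of neurons, was at 0.902, 2.46 and 0.916 FPKM in *Per1*-/- libraries and at 3.41, 3.80 and 4.15 FPKM in WT, and its log2 fold change of -1.49 (adjusted p = 0.415 from limma) was -1.46 on day 0 and -1.92 on day 2. It lies on chromosome 11 as well, 47.2 Mb from *Per1*. *Sct*, which encodes the hormone secretin, was at 0.829, 0.950 and 0.340 FPKM against 2.82, 1.95 and 1.94 FPKM, with a log2 fold change of -1.61 (adjusted p = 0.334 from limma), and it was called with a pseudocount of 1. The neighbouring urea transporter genes *Slc14a1* and *Slc14a2* on chromosome 18 had log2 fold changes of -1.25 and -1.73. *Slc14a1* was at 3.75, 8.62 and 4.11 FPKM against 19.5, 10.9 and 8.74 FPKM. In *Per2*-/- libraries of day 4 the change against WT was -1.78 for *Sct*, 0.02 for *Rnf157*, 0.34 for *Slc14a1* and 0.24 for *Slc14a2*. The remaining large differences were in very short genes with few fragments, *Mir154*, *Snora69* and *Ighj2* upward and *mt-Ti* downward, each with 0 fragments in at least 1 library, and no fold is drawn from them.

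Housekeeping and metabolic functions differed in spread as well as in direction. The 83 ribosomal protein genes split 42 higher to 41 lower, with a median of 0.00, and *Rps12*, at 128, 139 and 143 FPKM against 144, 195 and 151 FPKM, was 1 of 2 that were separated. The 81 nuclear genes of the respiratory chain had 57 lower and a median of -0.06, and 14 of them (against 3 upward) were separated downward. *Cox6c*, a subunit of cytochrome c oxidase, was at 25.2, 24.7 and 26.8 FPKM in *Per1*-/- libraries and at 32.5, 31.0 and 28.3 FPKM in WT. *Cox7a2l*, a factor in the assembly of respiratory supercomplexes, went the other way, at 126, 131 and 129 FPKM against 116, 113 and 110 FPKM. Both were tight within groups, with log2 fold changes of -0.26 and 0.18 (standard errors 0.073 and 0.059, adjusted p = 0.434 and 0.570 from limma). Of 12 listed protein-coding genes of the mitochondrial genome, 11 were lower and none was separated, and *Per1*-/- replicate 1 had the lowest mean of the 6 libraries. Over all 33 tested genes of the mitochondrial genome, which include tRNA genes such as *mt-Tw*, 28 were lower and 5 were separated downward.

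In glucose metabolism 5 of 27 genes were separated, all upward (18.5%, against 7.98% of all genes). *Hk2*, an inducible hexokinase gene, was at 2.62, 3.18 and 2.80 FPKM in *Per1*-/- libraries and at 1.80, 2.03 and 2.12 FPKM in WT, and *Gpi1*, the next enzyme of glycolysis, was 0.15 higher. *Abca1*, which exports cholesterol to lipoproteins, was at 24.3, 19.9 and 23.5 FPKM against 14.9, 13.7 and 19.8 FPKM. The list of cholesterol synthesis and uptake as a whole had a median of 0.05, which became 0.35 with the marker mean as a covariate.

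Stress and cell cycle lists had medians near 0, while single members differed more. *Atf3*, a stress-induced transcription factor, was at 5.12, 6.57 and 7.11 FPKM in *Per1*-/- libraries and at 3.83, 3.44 and 4.47 FPKM in WT, and *Xbp1*, of the unfolded protein response, was 0.22 higher. Their list of 38 genes had a median of -0.03, with 22 lower, and ran from -0.38 to 0.66. In it 4 genes were at an unadjusted p under 0.05, all higher, where 3.74% of all genes were. Of 36 mitotic genes 34 were lower, but by a median of only -0.09 and with 1 gene separated, and the list mean of 2.05, 2.33 and 2.03 in *Per1*-/- libraries overlapped with 2.34, 2.32 and 2.05 in WT. *Orc6*, a subunit of the origin recognition complex, was at 7.6, 8.34 and 8.37 FPKM against 10.4, 12.4 and 8.79 FPKM. *Prdx2*, a peroxiredoxin gene, had a log2 fold change of -0.13.

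Lists for other cell types that MEF cultures can hold gave no separated means. All 11 adipogenic genes were higher, with a median of 0.22, but 1 was separated, the scavenger receptor and fatty acid transporter gene *Cd36*, at 14.4, 18.7 and 22.9 FPKM in *Per1*-/- libraries and at 13.3, 11.9 and 13.1 FPKM in WT. *Cd36* is also expressed by macrophages. With the marker mean as a covariate its log2 fold change of 0.52 became -0.56 (adjusted p = 0.868 from limma). Which cells its RNA came from was not tested. Medians were 0.19 for 13 Schwann cell and neural crest genes, 0.19 for 7 endothelial genes, -0.14 for 11 chondrocyte and bone genes and 0.02 for 8 epithelial genes. The endothelial median was -0.13 with the marker mean as a covariate, -0.10 for genes of at least 1 FPKM and -0.03 without WT replicate 3. The epithelial median also turned negative in most alternatives, to -0.65 with the covariate.

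Skeletal muscle genes had a median of 1.30 on day 0, 0.22 on day 2 and 0.15 on day 4 over 21 genes. *Myl1*, a myosin light chain gene of fast muscle, had a log2 fold change of 2.15 on day 0 and 0.42 on day 4, and the difference between these days was not called (unadjusted p = 0.109 from limma). Its day 0 values were 1.10, 5.26 and 0.588 FPKM in *Per1*-/- libraries and 1.01, 0.0233 and 0.264 FPKM in WT, so that the groups overlapped and *Per1*-/- replicate 2 lay above the other 5 libraries. The difference between the days was at an unadjusted p under 0.05 for 6 of the 21 genes, against 3.35% of all genes tested. Neuronal cytoskeleton genes were 0.10 on day 0 and -0.16 on day 4, and *Tubb3* was 0.72 and -0.09.

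**Figure D5:**
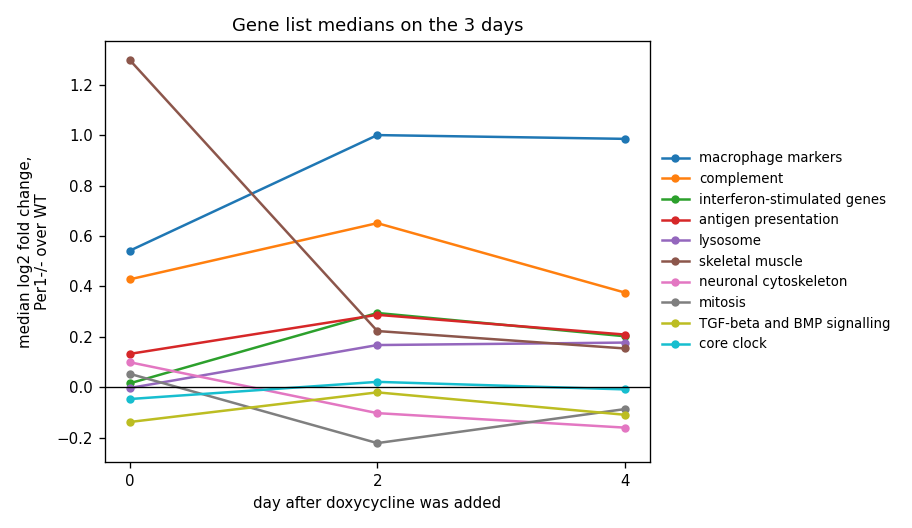
Median log2 fold change of *Per1*-/- over WT for 10 gene lists on days 0, 2 and 4. Skeletal muscle goes from 1.30 to 0.15, macrophage markers go from 0.54 to 0.99, and the core clock stays within 0.05 of 0 on all 3 days.

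Across all genes, no difference between *Per1*-/- and WT was called as differing between day 4 and day 0 or between day 4 and day 2 (limma, and 0 also with voom weights). At an unadjusted p under 0.05 there were 500 such genes (3.35%) for day 0 and 182 (1.22%) for day 2. Of 460 genes that were separated upward on day 4 with an unadjusted p under 0.05, 410 had the same sign on day 2 and 316 on day 0, and their median went from 0.47 on day 4 to 0.21 and 0.08. Of 270 such genes in the downward direction, 214 and 190 had the same sign, and their median of -0.31 on day 4 was -0.08 on day 2 and -0.06 on day 0. These genes were chosen on day 4, so a smaller value on another day is no sign of change. On day 0 the log2 fold change was 0.02 for *H2-D1*, 0.14 for *H2-K1* and 0.11 for *Ctsc*.

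By genome position, chromosome 11, which carries *Per1*, had 53 higher and 37 lower genes at an unadjusted p under 0.05 among 1194 tested (7.54%). The other nuclear chromosomes lay between 4.47% (X) and 7.24% (chromosome 8), and the mitochondrial genome, with 1 higher and 9 lower of 33, was at 30.3%. None of its 12 listed protein-coding genes was at that p, and its other genes include short tRNA genes with few fragments, such as *mt-Tw*. Within 5 Mb of *Per1* the genes at an unadjusted p under 0.05 were 7 higher and 5 lower of 122 (9.84%). From 5 to 20 Mb they were 18 and 16 of 385 (8.83%), and beyond 20 Mb 28 and 16 of 687 (6.40%). By kind of gene, the share was 6.06% for 12754 protein-coding genes and 7.63% for 786 processed pseudogenes. The size of a difference followed the level of the gene: its median without regard to sign was 0.26 on the log2 scale for genes under 1 FPKM, 0.12 from 1 to under 10, 0.08 from 10 to under 100 and 0.09 from 100 upward.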

How the data were processed

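Poly(A) RNA from cultures on days 0, 2 and 4 was sequenced in pairs from non-directional libraries, 3 biological replicates a group. Per the labels and methods, the authors aligned reads with HISAT2 2.0.5 to mm10, counted with featureCounts 1.5.0-p3, and deposited FPKM for 54532 genes, made from counts and gene length. Every FPKM in the table solved to whole fragments (within 0.01), which gave the depth of 15815013 to 24264097 fragments per library. FPKM with a mean of at least 0.5 were analysed as log2(FPKM + 0.1) with limma 3.58.1 over 9 groups (trended variance, Benjamini-Hochberg adjustment). The study's methods test counts with a negative binomial model. No such model was fitted to the solved fragments, which entered limma with voom weights as an alternative. Directions, separation of groups (no overlap of 3 against 3 libraries) and medians were described for 42 lists of genes by function, without a test of the lists.

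Genes named are *Per1* and *Per2*, all called genes, the 10 largest differences in each direction among non-predicted genes with an unadjusted p under 0.05, separated groups and at least 1 FPKM, up to 2 genes with the smallest p among the separated ones of each list, and chosen macrophage, cytokine, delivered and neuronal genes. Not every gene these rules give is printed, and 1 of them is not reported here. The comparison, the lists and the rules were chosen with earlier results of these data known. Replicates are biological by their labels. Same-numbered WT and *Per1*-/- libraries correlated at -0.007, 0.120 and 0.076 in their deviations from group means. Libraries with unlike numbers correlated at -0.128 to 0.057, so that 0.120 and 0.076 were the highest values. All were small, and this does not settle whether the numbers pair libraries. The main fit did not pair them, and replicate blocks were an alternative. The fit was tested on simulated data. Alternatives were other pseudocounts, filters, scalings, voom weights, replicate blocks, a marker covariate, fewer groups, and leaving out each library.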

Additional observations from a re-analysis of the deposited data

How the results depend on the processing

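Of 4 genes called (3 higher, 1 lower), the count was 2 (2 and 0) with the marker mean as a covariate, 13 (8 and 5) without a filter, 0 (0 and 0) in a fit of only the 6 libraries, 7 (5 and 2) with a pseudocount of 1, 1 (1 and 0) with the replicate block, 2 (1 and 1) after rescaling to a common sum, and 3 (3 and 0) with voom weights. Leaving out 1 library gave 0 to 7 called genes, 0 to 3 higher and 0 to 4 lower. Both extremes came from *Per1*-/- libraries: 7 without replicate 3 and 0 without replicate 1, and 0 also without any 1 of the WT libraries. At an unadjusted p under 0.05, the 558 higher and 366 lower genes became 1646 and 1136 without a filter and 158 and 1753 after rescaling to a common sum, and lay between 351 and 633 and between 216 and 457 when 1 library was left out. That rescaling moved the median of all genes from -0.01 to -0.14. Rescaling without *Gm23935*, chosen after the data were seen, gave -0.02 and 504 and 427 genes. The replicate block, which joined same-numbered libraries of a day, left 556 and 286 genes at an unadjusted p under 0.05. For differences between days another block was used, which joined same-numbered libraries of a genotype. Under that block no gene was called, with 781 and 240 genes at an unadjusted p under 0.05 for days 0 and 2. *Sct* was called with a pseudocount of 1 (log2 fold change -0.93).

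The sign turned with the marker covariate for *Cd36* (-0.56), *Tnf* (-0.40), *Itgam* (-0.13) and *Tubb3* (0.11), of which *Itgam* is itself 1 of the averaged markers. It also turned for *Pou3f2* after rescaling (-0.12). When 1 library was left out the delivered and neuronal genes lay on both sides of 0, *Pou3f2* from -0.13 to 0.26, *Myt1l* from -0.39 to 0.13, *Tubb3* from -0.20 to 0.065, *Map2* from -0.22 to 0.0048 and *Mapt* from -0.25 to 0.17. Among values of the lists, 639 of 672 medians moved by less than the larger standard deviation of the list mean within a group. This measure does not show that the signs held, because that standard deviation can exceed the median. The synaptic median went from -0.13 to 0.06 without WT replicate 3, within a standard deviation of 0.27. Depth limits *mt-Tw* most among the called genes, at 6 to 45 fragments a library.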
